A study of Mus musculus with 53 samples.

Results

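The interferon-stimulated genes examined here were 40 mouse genes, chosen by name with earlier results of these data known, whose transcription is known to rise when a cell senses an interferon. Each of the 40 symbols matched 1 row of the deposited table of gene counts, which held 55421 gene rows for 53 RNA-seq libraries of intestinal tissue. In each comparison 39 or 40 of the 40 genes passed the filter on low counts, and the one that failed, in 2 comparisons, was Gbp6.

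The libraries came from mice in which tamoxifen switched on a Cre recombinase under the Villin promoter (VilCreER+), so that alleles were recombined in intestinal epithelial cells while the rest of the tissue kept its floxed alleles. All 11 groups carried this transgene, including those called WT here. In the proximal colon there were 4 BA tumours (BrafV600E/+ Alk5fl/fl, where Alk5 is another name of the TGFβ receptor gene Tgfbr1) and 3 WT tissues. At day 30 after induction the proximal colon of 5 BA, 5 BA antibiotic, 4 A (Alk5fl/fl), 4 A sulindac and 4 WT mice was taken. Antibiotics (ampicillin, neomycin trisulphate, vancomycin and metronidazole) were in the drinking water from the day after induction. Sulindac, an anti-inflammatory drug, was in the water for 14 days and then withdrawn. The authors gave it at a high dose to injure the proximal colon and so cause inflammation for a short time. In the small intestine (SI) there were 10 Apcfl/fl and 6 WT tissues at day 4, and 5 Apcfl/+ tumours with 3 WT tissues of their own. All groups were on a mixed C57BL/6J background except the Apcfl/+ tumours and their WT tissue, which were on an inbred one, and the labels gave neither age nor sex.

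Interferons of type I and type III signal through receptors that lead STAT2 and IRF9 to bind the interferon-stimulated response element (ISRE) in the promoters of their targets. Interferon gamma acts through a different promoter element, the gamma-activated site (GAS). The induced genes encode sensors of viral nucleic acid, transcription factors that widen the response, enzymes that degrade or modify viral RNA, GTPases that attack vacuoles holding microbes, and the proteasome subunits and transporter that feed MHC class I. In the gut, the epithelium keeps a low level of this programme in the presence of the microbiota and viruses.

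The promoters of 29 of the 40 genes were found in the RefSeq promoter table (GRCm38.p6), which holds 250 bases before and 50 after each gene's start. The ISRE core was searched as GAAA, any 2 bases and GAAA on both strands, and the GAS core as TTC, any 3 bases and GAA. The ISRE core lay in the windows of 15 of the 29 genes (51.7%) and of 3.99% of the 27025 genes of the table. The GAS core lay in 9 of the 29 (31.0%) and in 9.55% of all genes, and both lay in 4 of the 29. The 5 windows below are examples that hold an ISRE core. They belong to genes called in tumours and with antibiotics (Isg15, Ifit1, Oas1a and Oas3) or to a GTPase gene that fell in BA tissue at day 30 (Gbp3). Other genes called in tumours or with antibiotics, among them Irf7, Irf1, Irf9, Lgals3bp and Cmpk2, had no ISRE core in their windows. Each runs from 130 bases before the start to 20 after it, and capitals mark the ISRE cores on either strand, with overlapping cores merged into 1 run.
Isg15, chr4:156200799-156200948, minus strand: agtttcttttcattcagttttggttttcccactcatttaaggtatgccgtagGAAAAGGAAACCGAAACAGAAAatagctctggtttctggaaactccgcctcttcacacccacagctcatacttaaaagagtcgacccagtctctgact
Ifit1, chr19:34640759-34640908, plus strand: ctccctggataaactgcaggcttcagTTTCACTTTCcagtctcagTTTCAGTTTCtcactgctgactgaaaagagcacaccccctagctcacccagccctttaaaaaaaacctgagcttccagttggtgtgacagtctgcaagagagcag
Oas1a, chr5:120907506-120907655, minus strand: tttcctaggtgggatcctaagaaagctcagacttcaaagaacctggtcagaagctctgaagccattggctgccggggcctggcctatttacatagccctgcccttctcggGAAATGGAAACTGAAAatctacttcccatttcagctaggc
Oas3, chr5:120777640-120777789, minus strand: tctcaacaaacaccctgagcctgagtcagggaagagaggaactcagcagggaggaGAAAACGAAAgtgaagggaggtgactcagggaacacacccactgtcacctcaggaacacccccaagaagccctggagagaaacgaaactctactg
Gbp3, chr3:142559914-142560063, plus strand: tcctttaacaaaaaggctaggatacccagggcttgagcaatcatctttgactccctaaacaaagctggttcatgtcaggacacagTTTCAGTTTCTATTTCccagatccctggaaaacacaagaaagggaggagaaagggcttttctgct

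Several of the genes lie close together in GRCm38: Ifit1, Ifit2 and Ifit3 on chromosome 19, Oas1a, Oas2 and Oas3 on chromosome 5, Gbp2, Gbp3 and Gbp7 on chromosome 3, Rsad2 and Cmpk2 on chromosome 12, and Tap1, Psmb8 and Psmb9 on chromosome 17. The counts of Gbp6, Oas1a and Ifit3 are uncertain because these genes are near copies of others: 73.0% of the 36-base words in the exons of Gbp6 also occurred in other genes, mostly in Gm43302, against 65.7% for Oas1a (mostly Oas1g) and 58.5% for Ifit3 (mostly Ifit3b). Psmb9 and Tap1 overlap on opposite strands, and Mx2 is annotated as a polymorphic pseudogene.

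Library totals ranged from 516985 to 32824795 assigned reads, with a median of 18356939. The lowest total was that of Apcfl/fl SI replicate 1 at day 4, whose group median was 17184408, and it was kept in the main fit. Apcfl/fl SI replicate 8 had the lowest Apc (36.5 CPM) and Braf (12.5 CPM) of its group. It was lowest of its group in 16 of the 40 genes. Levels below are CPM, gene counts relative to library size after TMM scaling over all libraries, and a gene was called changed at an adjusted p under 0.05 in edgeR's quasi-likelihood test over all genes tested. None of the 55 cell type markers examined, 8 of them epithelial, was at 0 throughout any group. Counts summed over all transcripts of a gene do not show whether an allele was recombined: Tgfbr1 lay between 33.5 and 59.8 CPM in A mice at day 30 and between 34.7 and 65.2 CPM in their WT, and Apc lay between 36.5 and 147 CPM in Apcfl/fl SI and between 64.4 and 111 CPM in its WT. In Apcfl/+ tumours Apc fell by 0.34 on the log2 scale (adjusted p = 0.0114). In BA tumours, which also carried Alk5fl/fl, Tgfbr1 rose by 1.22 against WT proximal colon, without overlap (adjusted p = 0.0156). Per kilobase of exon, Lgals3bp, a secreted glycoprotein that binds galectins, led the WT SI with 71.6 ± 15.2 CPM per kb (SD, n = 3), and Irf7 led the WT proximal colon with 42.6 ± 10.9 CPM per kb (SD, n = 3). Gbp6 was lowest per kilobase in both, at 0.583 and 0.196 CPM per kb. Of the interferon genes themselves, Ifna1 and Ifna4 had 0 reads in all libraries. Ifnb1, an early type I interferon, had at most 1 read in any library. By contrast, Ifnk had 106 reads over the 3 WT SI libraries and 68 over the 4 BA tumours, 43 of those 68 in 1 tumour.

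**Figure D1:**
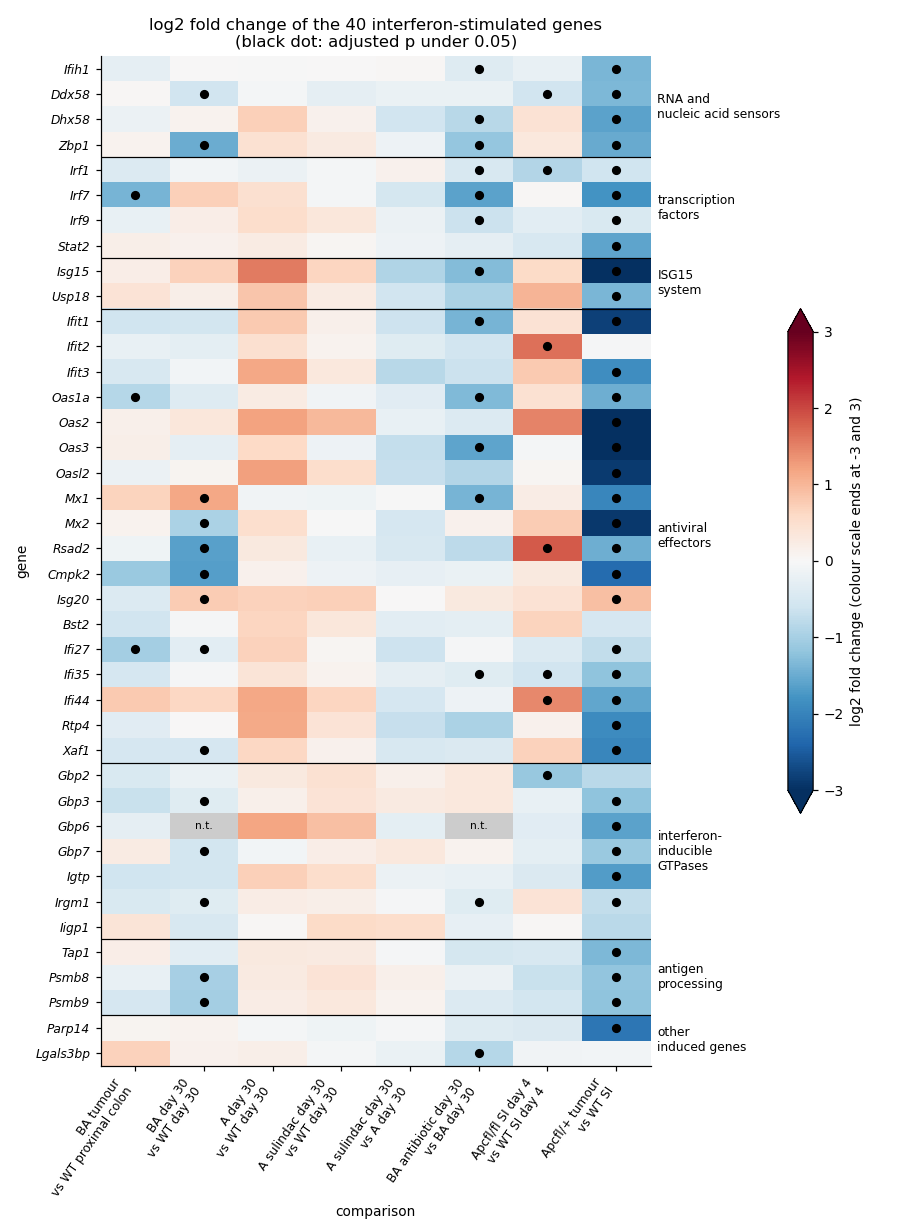
log2 fold change (colour) of each of the 40 genes (rows, grouped by role) in each of the 8 comparisons (columns) on a colour scale that ends at -3 and 3, with a black dot where the adjusted p was under 0.05 and n.t. where the gene was not tested. The column of Apcfl/+ tumours holds 35 dots, 34 of them on blue, whereas the 3 columns of A mice hold none.

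The largest change of the group was in Apcfl/+ tumours, which arise in the SI in mice with 1 floxed Apc allele. Compared with WT SI, 34 of 40 genes fell and 1 rose, and the median log2 fold change was -1.47, against 0.03 for all genes tested. Over all 20567 genes tested, 61.5% were called in either direction, 6189 of them lower and 6461 higher. Every role took part: 4 of 4 sensors, 4 of 4 transcription factors, 2 of 2 genes of the ISG15 system, 15 of 18 antiviral effectors, 5 of 7 GTPases and 3 of 3 antigen processing genes fell. Genes not called were Iigp1 (-0.81, adjusted p = 0.0505), Bst2 (-0.51), Gbp2 (-0.80), Lgals3bp (-0.09) and Ifit2 (-0.04).

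Among the sensors, Ifih1, which encodes the RNA sensor MDA5, had 125, 144 and 142 CPM in WT SI and 54.4, 41.3, 51.9, 52.9 and 47.1 CPM in the tumours. All 5 tumours were below all 3 WT tissues, and the fall was 1.37 on the log2 scale (SE 0.11, adjusted p = 3.61e-05). Ddx58, which encodes the sensor RIG-I, fell by 1.35 (SE 0.13), and Dhx58 and Zbp1 fell by 1.61 and 1.51. Stat2, the STAT of the ISRE-binding complex, had 54.8, 85.4 and 80.1 CPM in WT SI and 23.6, 24.5, 18.9, 23.8 and 23.7 CPM in the tumours. The tumours were tightly grouped and did not overlap WT, and the fall was 1.58 (SE 0.15, adjusted p = 8e-05). Irf7, the factor that amplifies type I interferon, had 82.6, 122 and 136 CPM in WT SI and 34.1, 24.1, 32.5, 30.6 and 32.6 CPM in the tumours, again with no overlap (log2 fold change -1.78, SE 0.17, adjusted p = 8.3e-05).

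Isg15, the ubiquitin-like protein that is conjugated to other proteins in the response, had 4.94, 19.3 and 18.3 CPM in WT SI, where the first library was far below the others. That library, WT SI 1, was lowest of its group in 31 of the 40 genes. Its level of the leukocyte gene Ptprc was 231 CPM, against 132 and 147 CPM in the others. The tumours had 2.16, 1.58, 0.936, 0.929 and 1.64 CPM, all below WT (log2 fold change -3.19, SE 0.45, adjusted p = 0.000475). The 2′-5′ oligoadenylate synthetases, which activate RNase L, included the steepest falls: Oas3 by 4.08 (SE 0.41), from 73.3 ± 24.7 to 4.05 ± 2.09 CPM, and Oas2 by 3.48 (SE 0.49). Cmpk2, a mitochondrial nucleotide kinase next to Rsad2, had 37.1, 44.3 and 52.0 CPM in WT SI and 9.73, 7.93, 6.91, 7.83 and 9.35 CPM in the tumours, with no overlap. Its fall of 2.31 (SE 0.15) had the lowest adjusted p of the group, 1.76e-05. Mx1, listed with the antiviral effector genes, had 13.7, 12.6 and 13.3 CPM in WT SI and 3.29, 4.17, 2.76, 2.65 and 2.90 CPM in the tumours, with a wide gap between the groups (log2 fold change -1.96, SE 0.17, adjusted p = 4.74e-05). Parp14, a mono-ADP-ribosyltransferase, had 214, 321 and 305 CPM in WT SI and 59.8, 50.0, 58.2, 59.7 and 63.8 CPM in the tumours. The groups were again apart, and it fell by 2.16 (SE 0.15, adjusted p = 1.79e-05).

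Psmb8, a catalytic subunit of the immunoproteasome, had 87.5, 75.5 and 67.8 CPM in WT SI and 44.3, 18.6, 30.7, 30.8 and 32.2 CPM in the tumours (log2 fold change -1.19, SE 0.23, adjusted p = 0.00218). No tumour reached the lowest WT value. Its partner subunit Psmb9 fell by 1.20 and the peptide transporter gene Tap1 by 1.34. Gbp2, a guanylate-binding GTPase, had 41.6, 38.9 and 39.6 CPM in WT SI and 20.4, 18.8, 7.57, 16.1 and 43.8 CPM in the tumours. The fifth tumour was above every WT tissue, and the change was not called (log2 fold change -0.80, SE 0.44, adjusted p = 0.137). Isg20, an exonuclease that degrades RNA, was the only one of the 40 called higher, with 2.63, 2.17 and 1.99 CPM in WT SI and 4.00, 4.41, 2.94, 4.16 and 4.13 CPM in the tumours. The groups did not overlap, and it rose by 0.89 (SE 0.19, adjusted p = 0.00387).

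Of 38 tested genes of the wider pathway, 20 fell and 5 rose in Apcfl/+ tumours. Nlrc5, the activator of MHC class I genes, fell by 1.91, B2m, the light chain of MHC class I, by 1.46, and Cxcl11, an interferon-induced chemokine, by 3.26. Tmem173, which encodes the DNA-sensing adaptor STING, rose by 2.45. Markers of other cell types moved in the same comparison. All 9 T and NK cell markers were called lower, with summed levels of 79.1 to 85.2 CPM in WT SI and 9.55 to 23.4 CPM in tumours, and the leukocyte gene Ptprc fell by 1.61. Neutrophil markers rose in 4 of 5 cases, with summed levels of 5.10 to 6.25 CPM in WT SI and 13.7 to 79.4 CPM in tumours, and fibroblast markers in 5 of 6, with summed levels of 1134 to 1476 CPM in WT SI and 2775 to 3493 CPM in tumours. The part of these cells in the fall of the 40 genes was not tested, and in bulk tissue fewer cells of a type and less RNA per cell cannot be told apart. Of the 35 calls, 28 were made in each fit that left out 1 library, and the count without 1 library was between 29 and 37. The Y-linked gene Ddx3y was above 10 CPM in 3 of 3 WT tissues and in 1 of 5 tumours, and with a term for it 1 gene was called higher and 16 lower, with a median of -1.28. Gm13394, a processed copy of Gapdh, was above 10 CPM in 3 of 3 WT tissues and in 0 of 5 tumours, which cannot be told apart from the comparison itself.

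In BA tumours fewer of the 40 genes were called. Compared with WT proximal colon, 3 of 40 genes fell, none rose, and the median log2 fold change was -0.23, against 0.03 over all genes. Over all genes tested, 5.71% were called lower and 7.46% higher, so the members' 3 of 40 was close to the share of all genes. Irf7 (chr7:141262706-141266481) had 208, 146 and 129 CPM in WT proximal colon and 58.6, 69.9, 52.2 and 68.4 CPM in BA tumours. Every tumour was below every WT tissue, and the fall was 1.39 (SE 0.23, adjusted p = 0.00626). Oas1a, an oligoadenylate synthetase, had 35.3, 26.1 and 40.4 CPM in WT and 16.5, 19.6, 18.4 and 21.1 CPM in tumours, which did not overlap (log2 fold change -0.87, SE 0.21, adjusted p = 0.028). Ifi27, a small protein of mitochondrial and nuclear membranes, had 86.9, 40.2 and 54.0 CPM in WT and 23.7, 35.7, 27.9 and 33.2 CPM in tumours, also without overlap (log2 fold change -1.03, SE 0.29, adjusted p = 0.0465).

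The other genes described in every comparison were not called in BA tumours. Isg15 had 2.19, 1.23 and 3.27 CPM in WT proximal colon and 2.12, 5.38, 0.793 and 2.27 CPM in tumours, which spread on both sides of WT (log2 fold change 0.19, SE 0.61). Stat2 had 25.6, 30.08 and 34.3 CPM in WT and 39.2, 38.1, 27.7 and 31.9 CPM in tumours (0.17, SE 0.19). Gbp2 had 22.4, 31.8 and 19.5 CPM in WT and 11.1, 22.6, 23.7 and 14.1 CPM in tumours (-0.46, SE 0.32). In both genes the groups overlapped. Psmb8 had 44.1, 20.3 and 29.3 CPM in WT and 14.8, 56.1, 22.8 and 14.2 CPM in tumours, where the second tumour was above every other library (-0.23, SE 0.51).

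BA tumour 2 held the highest level of its group in 24 of the 40 genes. Without it, 6 genes fell (Irf7, Ifit1, Oas1a, Cmpk2, Ifi27 and Ifi35), Lgals3bp rose, and the median was -0.52. Since leaving out the tumour with the highest levels lowers the rest by itself, the added lower calls are no separate evidence of a fall. Irf7 was called in each of the 7 fits that left out 1 library. The calls of Oas1a and Ifi27 were lost without BA tumour 1, 3 or 4 or without WT tissue 1 or 3, which left Irf7 as the 1 lower call in each case, beside Lgals3bp as a higher call without BA tumour 1. Ddx3y was above 10 CPM in 3 of 4 tumours and in 0 of 3 WT tissues, and with a term for it in edgeR none of the 40 was called, while the median was -0.52 and 9 genes had an unadjusted p under 0.05, against 6 without the term. Gm13394 was above 10 CPM in 3 of 4 tumours and in 0 of 3 WT tissues, and its part was not tested. Of 53 tested cell type markers 17 rose and 3 fell, with neutrophil markers summing to 2.42 to 5.17 CPM in WT and 19.4 to 82.9 CPM in tumours, and fibroblast markers summing to 1473 to 2461 CPM in WT and 4429 to 5308 CPM in tumours. Their part in these values was not tested. Of 37 tested genes of the wider pathway 6 rose, among them Tmem173 by 2.05 and Socs3, which encodes a brake on cytokine signalling, by 3.56, and 1 fell (Mavs, the adaptor of the RNA sensors, by 0.71).

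**Figure D2:**
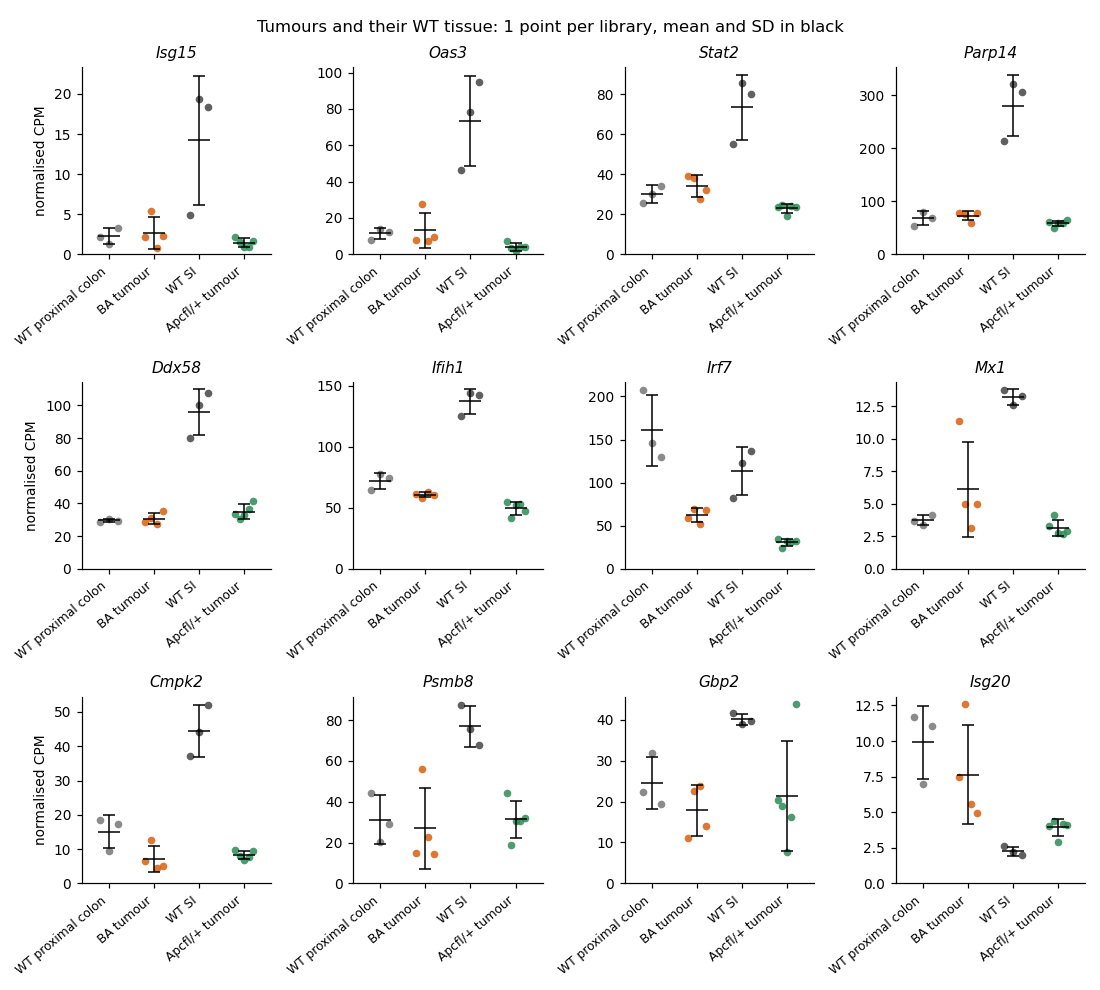
Level in normalised CPM (linear axis from 0) of 12 genes in each library of WT SI, Apcfl/+ tumour, WT proximal colon and BA tumour, 1 point per library with the group mean and SD. Isg15 lies between 4.94 and 19.3 CPM in WT SI and at 5.38 CPM or less in every library of the other 3 groups.

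The effects in the 2 tumour types were then set against each other, by testing whether the log2 fold change in BA tumours differed from that in Apcfl/+ tumours. The difference was called in 23 of 40 genes, 22 of them higher in BA and 1 lower, where 21.9% and 17.7% of all genes tested were called. The median difference was 1.37, against 0.05 over all genes. It was called higher in 3 of 4 sensors, 1 of 4 transcription factors, both genes of the ISG15 system, 11 of 18 effectors, 2 of 7 GTPases and 1 of 3 antigen processing genes. The largest was that of Oas3 (4.27, SE 0.69, adjusted p = 0.00062), followed by Oas2 (3.68) and Isg15 (3.39, SE 0.80, adjusted p = 0.00526). Parp14 had the lowest adjusted p (2.28, SE 0.24, adjusted p = 3.29e-05), and Stat2 (1.78, SE 0.24), Ddx58 (1.41, SE 0.19) and Ifih1 (1.14, SE 0.16) followed. The difference was not called for Irf7 (0.42, SE 0.28, adjusted p = 0.244), which fell in both tumour types, nor for Gbp2 (0.36, SE 0.59) or Psmb8 (0.97, SE 0.59). Isg20 was the 1 gene whose change was lower in BA (-1.28, SE 0.42, adjusted p = 0.0283).

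The levels behind these differences lay in the WT tissues as well as in the tumours. Ddx58 averaged 96.0 ± 14.2 CPM in WT SI and 29.7 ± 0.926 CPM in WT proximal colon (SD, n = 3 each), against 35.04 ± 4.37 CPM in Apcfl/+ tumours (SD, n = 5) and 30.7 ± 3.37 CPM in BA tumours (SD, n = 4). Oas3 averaged 73.3 CPM in WT SI and 11.5 ± 3.11 CPM in WT proximal colon, against 4.05 CPM in Apcfl/+ and 13.1 ± 9.77 CPM in BA tumours. Tissue and genetic background differed together with the tumour genotype and cannot be told apart from it. Ddx3y was above 10 CPM in 3 of 4 BA tumours and 0 of 3 of their WT tissues, but in 1 of 5 Apcfl/+ tumours and 3 of 3 of theirs. For Gm13394 these were 3 of 4 and 0 of 3, and 0 of 5 and 3 of 3. No term for Ddx3y or Gm13394 was fitted to this difference, so their part in it was not tested. Of the 23 calls, 13 were made in each of the 15 fits that left out 1 library (Ifih1, Ddx58, Stat2, Isg15, Ifit1, Oas2, Oas3, Oasl2, Mx1, Mx2, Gbp7, Tap1 and Parp14). The count fell to 14 without WT SI 2 and to 15 without WT SI 3 or WT proximal colon 2, and the call of Isg20 was lost without WT SI 3 or without WT proximal colon 1 or 3. In the wider pathway 20 of 38 genes were called higher, none lower, among them Nlrc5 (3.03) and Cd274 (2.41), which encodes PD-L1.

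**Figure D3:**
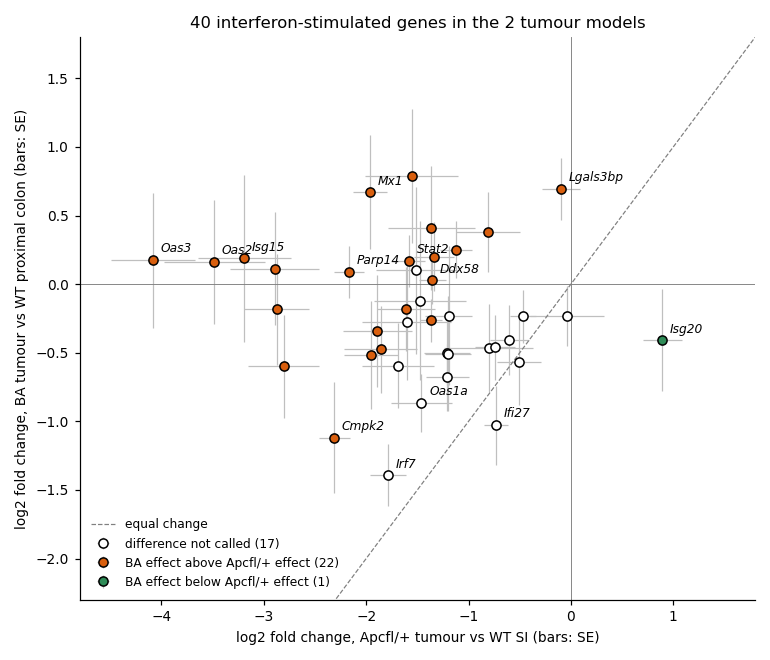
log2 fold change of each of the 40 genes in Apcfl/+ tumours against WT SI (x axis) and in BA tumours against WT proximal colon (y axis), with SE bars and a dashed line of equal change. The 22 orange points, called higher in BA, lie above the line, 1 green point (Isg20) lies below it, and 17 white points were not called.

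At day 30 BA tissue differed from WT in 14 of the 39 genes tested, with 2 higher and 12 lower. Over all genes 25.8% were called higher and 29.3% lower, so the lower share of the 39 was close to that of all genes, and the median of -0.19 stood beside -0.03 over all genes. Mx1 had 6.34, 5.87, 8.22 and 4.58 CPM in WT and 14.4, 16.8, 9.86, 16.1 and 13.1 CPM in BA. All BA values were above all WT values, and the rise was 1.16 (SE 0.19, adjusted p = 0.000399). Isg20 had 13.5, 14.6, 8.64 and 11.0 CPM in WT and 17.6, 24.8, 22.4, 17.9 and 19.6 CPM in BA, also without overlap (0.77, SE 0.16, adjusted p = 0.0016).

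The falls included the antigen processing genes. Psmb8 had 21.2, 22.4, 22.9 and 23.7 CPM in WT and 13.2, 11.1, 10.3, 12.6 and 9.38 CPM in BA, with tight groups that stood apart (log2 fold change -1.01, SE 0.11, adjusted p = 1.79e-05). Psmb9 fell by 1.02 (SE 0.19), and Tap1 was not called (-0.32, adjusted p = 0.0722). Among effectors, Cmpk2 had 15.4, 9.59, 9.53 and 16.5 CPM in WT and 5.19, 3.94, 2.90, 3.28 and 4.96 CPM in BA (-1.66, SE 0.22, adjusted p = 9.13e-05). Its neighbour Rsad2, which encodes viperin, had 10.7, 7.60, 8.83 and 10.0 CPM in WT and 3.91, 4.00, 2.40, 1.49 and 3.33 CPM in BA (-1.62, SE 0.24, adjusted p = 0.000201). In both genes every BA library was below every WT library. Of the sensors, Ddx58 had 24.3, 26.7, 29.6 and 27.2 CPM in WT and 19.6, 18.5, 15.9, 18.1 and 19.1 CPM in BA, a smaller fall with no overlap (-0.58, SE 0.08, adjusted p = 0.000176), and Zbp1, a sensor of Z-form nucleic acid, fell by 1.49 (SE 0.24). The GTPase genes Gbp7, Irgm1 and Gbp3 fell by 0.55, 0.37 and 0.37, and Mx2, Xaf1 and Ifi27 by 0.96, 0.51 and 0.31.

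No transcription factor was called in BA tissue. Irf7 had 134, 316, 361 and 244 CPM in WT and 410, 714, 298, 361 and 403 CPM in BA, where the second library stood far above the others (0.71, SE 0.29, adjusted p = 0.0582). Stat2 had 39.9, 39.1, 41.2 and 38.4 CPM in WT and 42.9, 54.8, 33.3, 44.98 and 41.6 CPM in BA (0.12, SE 0.11). Isg15 had 4.83, 4.19, 3.10 and 3.21 CPM in WT and 6.54, 11.6, 2.82, 3.28 and 6.72 CPM in BA, which lay on both sides of WT (0.69, SE 0.36, adjusted p = 0.127). Gbp2 had 16.5, 18.1, 16.5 and 17.5 CPM in WT and 24.4, 13.8, 12.0, 14.2 and 11.3 CPM in BA, with the first BA library alone above WT (-0.19, SE 0.20). In the wider pathway 15 of 37 genes rose and 4 fell, with Cxcl11 higher by 2.06 and B2m lower by 1.46.

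Of the 14 calls, 10 were made in each of the 9 fits that left out 1 library. Ifi27 was called in 8 of these fits, Mx2 in 6, Xaf1 in 4 and Gbp3 in 3. Without BA 3, which was lowest of its group in 29 of the 40 genes, 5 genes were called higher (Irf7, Irf9, Isg15, Mx1 and Isg20) and 9 lower, with a median of -0.096. Leaving out this lowest library raises the rest of its group by itself, so the added higher calls are no separate evidence of a rise. Without BA 1 the counts were 2 higher and 16 lower, with a median of -0.33. With all 5 day 30 groups in 1 fit, 3 were called higher (Irf7, Mx1 and Isg20) and 7 lower. Gm13394 was above 10 CPM in 5 of 5 BA and in 0 of 4 WT libraries, which cannot be told apart from the genotype, and the same holds for A and A sulindac mice (4 of 4 each). Epithelial markers rose in 7 of 8 cases, from summed levels of 12571 to 15023 CPM in WT to 23948 to 28059 CPM in BA. Fibroblast markers fell in 5 of 6, from summed levels of 1324 to 1655 CPM in WT to 997 to 1255 CPM in BA. The part of both cell types in the changes of the members was not tested.

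**Figure D4:**
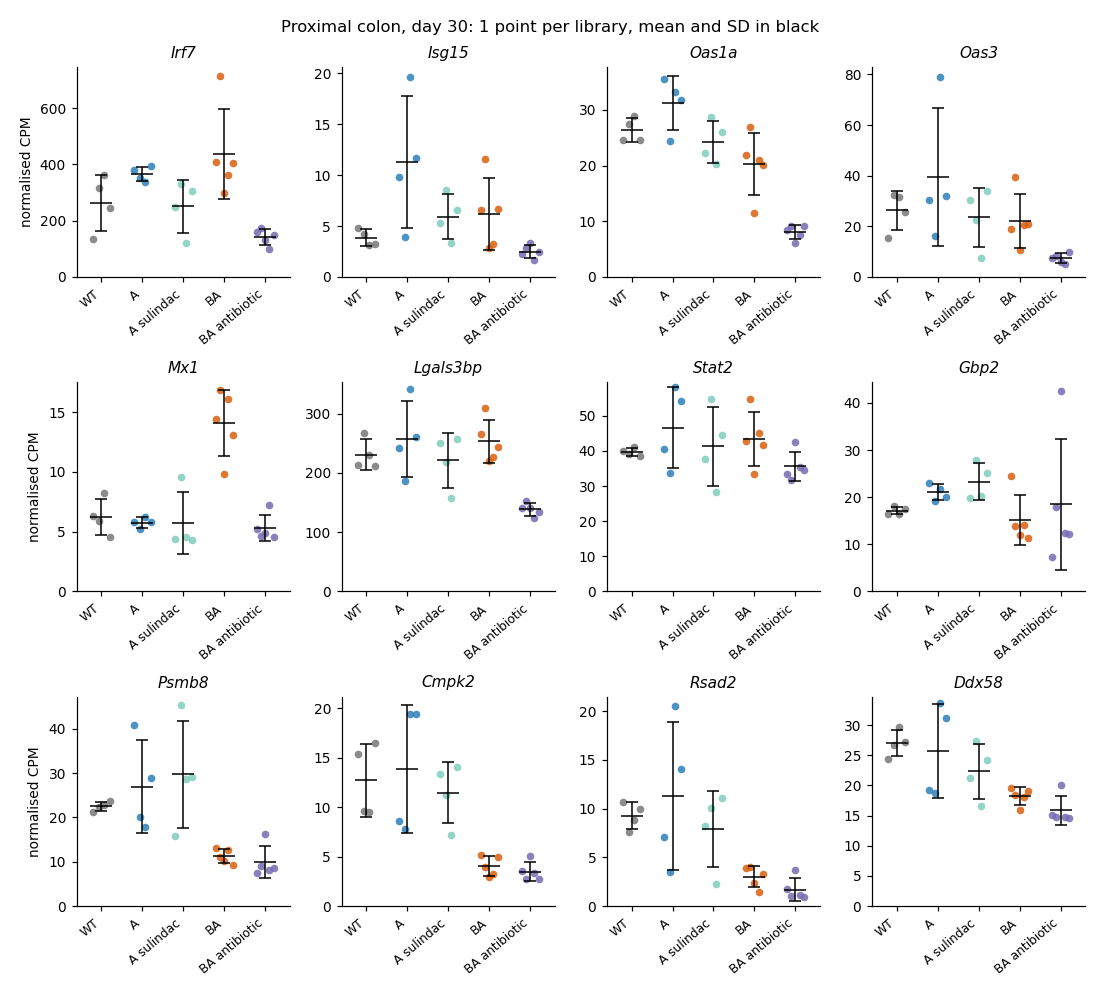
Level in normalised CPM (linear axis from 0) of 12 genes in each day 30 library of WT, A, A sulindac, BA and BA antibiotic mice, 1 point per library with the group mean and SD. In the panel of Irf7 the 5 BA antibiotic libraries lie between 100 and 174 CPM and the 5 BA libraries between 298 and 714 CPM.

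Several members were lower after antibiotics in BA mice. Compared with untreated BA mice, 14 of 39 genes fell and none rose at day 30, where 8.50% of all genes were called lower and 4.53% higher. The median was -0.42, against 0.03 over all genes. The calls were 3 of 4 sensors, 3 of 4 transcription factors, Isg15, 5 of 18 effectors, 1 of 6 GTPases and Lgals3bp, and no antigen processing gene was called. These BA libraries are the same ones that were compared with WT above.

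Lgals3bp had 265, 309, 220, 227 and 244 CPM in BA and 141, 153, 141, 123 and 134 CPM with antibiotics, in groups that were far apart (-0.86, SE 0.10, adjusted p = 0.000488). Mx1 had the BA values given above and 5.22, 4.64, 4.88, 7.26 and 4.53 CPM with antibiotics, all below BA (-1.40, SE 0.17, adjusted p = 0.0008). Irf7 had 161, 174, 132, 100 and 149 CPM with antibiotics, so that its mean was 143 ± 28.6 CPM, against 437 ± 161 CPM in BA (SD, n = 5 each). No library overlapped, and Irf7 fell by 1.604 (SE 0.22, adjusted p = 0.00139). Oas1a had 21.9, 27.0, 11.4, 21.04 and 20.2 CPM in BA and 8.37, 9.14, 6.07, 7.60 and 9.07 CPM with antibiotics. The third BA library was the lowest of its group and still above every treated library (-1.33, SE 0.20, adjusted p = 0.00172). Set beside WT at day 30, treated Lgals3bp and Oas1a were below all 4 WT values (212 to 267 CPM and 24.6 to 28.8 CPM), whereas Mx1 overlapped WT.

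Oas3 fell by 1.58 (SE 0.30), from 22.1 ± 10.6 to 7.38 ± 1.96 CPM, and Ifit1, which binds viral RNA, fell by 1.39 (SE 0.33), from 14.3 ± 6.20 to 5.41 ± 1.53 CPM (SD, n = 5 each). Irf1, a factor of the interferon gamma response, and Irf9 fell by 0.47 and 0.65. Isg15 had 2.25, 2.80, 3.31, 1.61 and 2.49 CPM with antibiotics, which overlapped BA 3 and BA 4 (-1.30, SE 0.37, adjusted p = 0.0403). Zbp1, Dhx58, Ifih1, Irgm1 and Ifi35 fell by 1.16, 0.83, 0.38, 0.37 and 0.36. Stat2, Psmb8 and Gbp2 were not called. Stat2 had 33.3, 31.8, 42.7, 35.5 and 34.7 CPM with antibiotics (-0.28, SE 0.13), and Psmb8 had 7.47, 9.14, 16.4, 8.06 and 8.49 CPM (-0.17, SE 0.23). Gbp2 had 7.41, 17.9, 42.5, 12.4 and 12.2 CPM (0.32, SE 0.43), with the third library above every other day 30 library of BA mice.

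BA antibiotic 3 held the highest level of its group in 27 of the 40 genes. Its fibroblast markers summed to 7392 CPM against a group median of 1391 CPM, its neutrophil markers to 36.1 against 1.84 CPM and its macrophage markers to 382 against 161 CPM. Without it 25 genes fell, none rose, and the median was -0.74, where 15.9% of all genes were called in either direction. Stat2 (-0.38, adjusted p = 0.0453), Psmb8 (-0.46, adjusted p = 0.0303), Tap1 (-0.76) and Rsad2 (-1.36) were then among the lower calls. Leaving out the treated library with the highest levels lowers the rest of its group by itself. The added lower calls are therefore no separate evidence of a fall. Fewer genes than in the main fit were called in other cases: 8 without BA 1, BA 5 or BA antibiotic 4, and 9 without BA 2 or BA antibiotic 5. The calls of Irf1, Irf7, Irf9, Ifit1, Oas1a, Oas3, Mx1 and Lgals3bp were made in all 10 of these fits, and that of Isg15 in 3. Of 44 tested cell type markers, 2 fell. One was Ly6d, listed for plasmacytoid dendritic cells but also expressed by epithelia, which fell by 1.63 (SE 0.15), from 53.1 ± 8.24 to 17.1 ± 3.30 CPM (SD, n = 5 each). Of the other markers of these cells, Tcf4 and Spib were not called (-0.07 and -0.26), and Siglech was at most 0.383 CPM in any library of either group. In the wider pathway 5 of 37 genes fell, none rose, with Cd274 lower by 1.06 and Tlr3, a sensor of double-stranded RNA, by 0.49.

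In A mice, which carried Alk5fl/fl without the Braf allele, none of the 40 genes was called at day 30 against the same WT libraries, where 0.141% of all genes were called in either direction. The median was 0.46, against 0.01 over all genes, and 34 genes had a positive fold change, with an unadjusted p under 0.05 in 16. Isg15 had 9.80, 3.96, 19.7 and 11.7 CPM in A, against 4.83, 4.19, 3.10 and 3.21 CPM in WT. The second A library lay within WT and the other 3 above it (1.56, SE 0.39, adjusted p = 0.345). Irf7 had 382, 352, 339 and 394 CPM (0.49, SE 0.25), Stat2 had 40.5, 33.8, 58.1 and 54.3 CPM (0.24, SE 0.16) and Psmb8 had 41.0, 20.1, 17.9 and 28.8 CPM (0.27, SE 0.23), all overlapping WT. Gbp2 had 23.1, 19.2, 21.6 and 20.1 CPM, all above WT (0.30, SE 0.11, adjusted p = 0.48). DESeq2 called 4 genes higher (Isg15, Isg20, Ifi27 and Igtp), limma voom 0, and edgeR 1 (Isg15) without A 2.

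After sulindac, none of the 40 was called in A mice against WT (0.0507% of all genes in either direction) or against untreated A mice (0% of all genes). Against WT the median was 0.19, with 3 genes at an unadjusted p under 0.05 in edgeR, 4 in DESeq2 and 2 in limma voom, and neither of the other tools called a gene. Against A the median was -0.24, with an unadjusted p under 0.05 in 1 gene in edgeR, 2 in DESeq2 and 1 in limma voom, and no calls by any of them. Both comparisons share libraries with the one above. Isg15 had 5.30, 8.52, 3.31 and 6.56 CPM after sulindac (0.64, SE 0.28 against WT and -0.91, SE 0.43 against A). Irf7 had 248, 329, 120 and 305 CPM, all below the lowest untreated A library (-0.53, SE 0.28, adjusted p = 1), and within or below the range of WT (-0.06, SE 0.34). Stat2 had 37.8, 54.6, 28.2 and 44.6 CPM (-0.16, SE 0.23 against A), and Psmb8 had 15.8, 45.3, 28.7 and 29.2 CPM (0.15, SE 0.32 against A). Gbp2 had 19.8, 28.0, 20.3 and 25.03 CPM, above every WT library (0.45, SE 0.13, adjusted p = 0.42) and overlapping A (0.16, SE 0.15). A sulindac 2 was highest of its group in 31 genes and A sulindac 3 lowest in 27. Without A sulindac 2, 13 genes had an unadjusted p under 0.05 against A and the median was -0.45, still with 0 calls. Removal of this highest library lowers the rest of its group by itself.

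In Apcfl/fl SI at day 4, 3 of 40 genes rose and 4 fell, where 27.5% of all genes were called higher and 26.7% lower. The median was 0.05, against 0.00 over all genes. Irf1 was between 182 and 250 CPM in the 6 WT libraries (median 208) and between 81.2 and 167 CPM in the 10 Apcfl/fl libraries (median 110). It was the only called gene whose groups did not overlap, and it fell by 0.88 (SE 0.13, adjusted p = 2.47e-05). Gbp2 was between 32.96 and 54.8 CPM in WT (median 37.9) and between 7.89 and 36.5 CPM in Apcfl/fl (median 14.0), with 2 Apcfl/fl libraries inside the WT range (-1.15, SE 0.27, adjusted p = 0.002). Ifi35 and Ddx58 both fell by 0.58 (SE 0.21 and 0.22).

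The 3 rises came with a wide spread. Ifit2, which binds viral RNA, was between 9.91 and 16.3 CPM in WT (median 12.6) and between 7.68 and 111 CPM in Apcfl/fl (median 21.4), and it rose by 1.65 (SE 0.49, adjusted p = 0.00858). Rsad2 was between 8.52 and 19.0 CPM in WT (median 15.3) and between 6.504 and 128 CPM in Apcfl/fl (median 25.3), and it rose by 1.83 (SE 0.59, adjusted p = 0.0141). Ifi44 was between 2.88 and 19.4 CPM in WT (median 12.5) and between 9.44 and 94.1 CPM in Apcfl/fl (median 13.7), and it rose by 1.44 (SE 0.57, adjusted p = 0.042). In all 3 genes the 3 highest libraries were Apcfl/fl 5, 6 and 7, and the other 7 lay between 7.68 and 27.0 CPM for Ifit2, 6.504 and 52.2 CPM for Rsad2 and 9.44 and 22.4 CPM for Ifi44. Isg15 was between 17.2 and 64.3 CPM in WT (median 58.3) and between 20.3 and 189 CPM in Apcfl/fl (median 44.7), and was not called (0.58, SE 0.46). Irf7 (0.02, SE 0.26), Stat2 (-0.48, SE 0.27) and Psmb8 (-0.66, SE 0.29) were not called either.

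Apcfl/fl 5, 6 and 7 held the highest level of their group in 3, 9 and 24 of the 40 genes, and all 3 had over 25 M reads (M, mega), as did 1 of the 6 WT libraries and no other Apcfl/fl library. Without these 4 libraries, a choice made after the data were seen, 1 gene was called higher (Ifit2, 0.61, adjusted p = 0.0455) and 17 lower, with a median of -0.52, where 45.1% of all genes were called in either direction. Gbp2 (-1.75), Igtp (-1.30), Gbp3 (-1.13), Stat2 (-0.98), Irf1 (-0.98) and Tap1 (-0.93) were among the lower calls, and Rsad2 (0.69, adjusted p = 0.184) and Ifi44 (0.10, adjusted p = 0.835) were not called. Taking out the Apcfl/fl libraries with the highest levels lowers the rest of the group by itself. These lower calls are therefore no separate evidence of a fall. With all libraries but 1, between 4 and 10 genes were called, with 4 without WT SI day 4 replicate 1 or 2, 10 without Apcfl/fl 8, and the calls of Irf1, Ifit2, Rsad2 and Gbp2 made in all 16 fits. Of the 3 rises, those of Rsad2 and Ifi44 were not called with limma voom (1 higher and 7 lower in all), with a replicate block (1 and 10) or with a term for Gm13394 (1 and 7), and that of Ifit2 was called in each. All 8 tested T and NK cell markers fell, from summed levels of 136 to 198 CPM in WT to 35.1 to 68.7 CPM in Apcfl/fl, and their part in these changes was not tested. In the wider pathway 2 of 37 genes rose (Tmem173 by 1.01 and Mb21d1, the DNA sensor cGAS, by 1.07) and 17 fell, among them B2m by 1.01 and Mavs by 1.08.

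**Figure D5:**
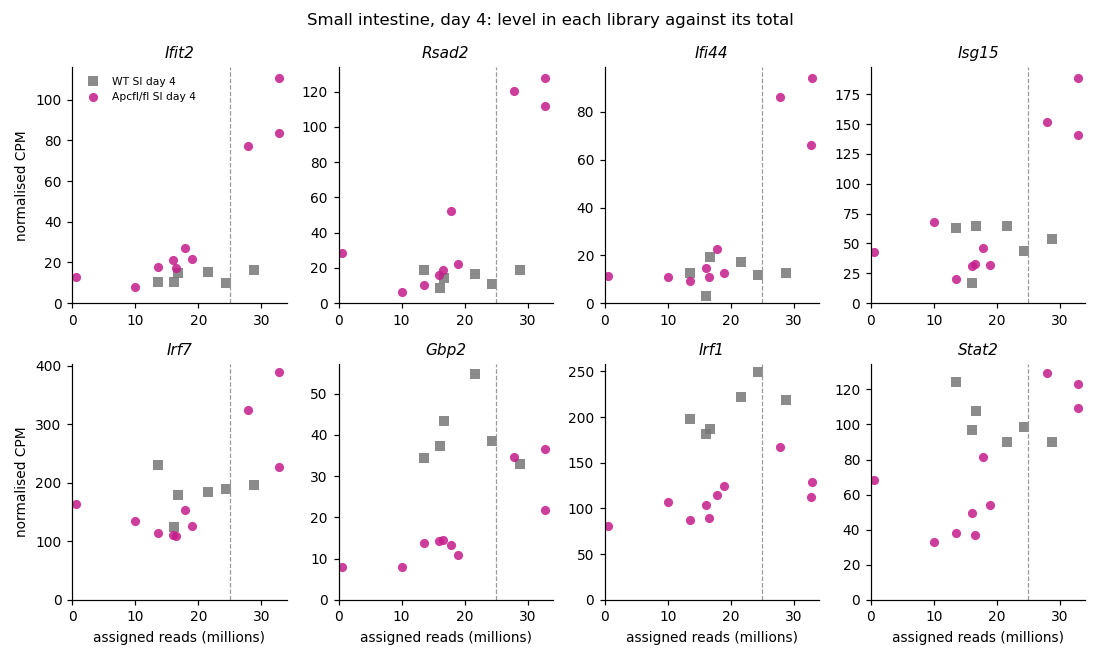
Level in normalised CPM (linear axis from 0) of 8 genes against the total reads in M (mega) of each SI library at day 4 (10 Apcfl/fl and 6 WT), 1 point per library, with a dashed line at 25 M reads. For Ifit2, Rsad2 and Ifi44 the 3 Apcfl/fl libraries to the right of the line are the highest points.

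The change in BA tumours was also tested against that in BA tissue at day 30, each relative to its own WT proximal colon. The difference was called in 4 of 40 genes, 2 higher and 2 lower, where 9.87% and 6.46% of all genes were called, and the median was -0.08 beside 0.02. Irf7 differed most (-2.12, SE 0.42, adjusted p = 0.0032), since its fold change was 0.71 at day 30 and -1.39 in tumours. Isg20 (-1.19, SE 0.38, adjusted p = 0.0411) was lower in tumours in the same sense, and Ddx58 (0.60, SE 0.15, adjusted p = 0.0136) and Gbp7 (0.80, SE 0.23, adjusted p = 0.0238) were higher. The call of Irf7 was made in each of the 16 fits that left out 1 library, that of Ddx58 in 15, that of Gbp7 in 14 and that of Isg20 in 3. In all, 1 gene was called without WT proximal colon 1 and 2 without WT proximal colon 3. Isg15 (-0.52, SE 0.71), Stat2 (0.05, SE 0.21), Gbp2 (-0.29, SE 0.37) and Psmb8 (0.75, SE 0.50) were not called. Ddx3y was above 10 CPM in 3 of 4 BA tumours and 0 of 3 of their WT tissues, and in every day 30 library of BA and WT mice. No term for it or for Gm13394 was fitted to this difference, so their part in it was not tested.

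Over the 8 comparisons, 10 of the 40 genes were called in 3 (Ddx58, Zbp1, Irf1, Irf7, Oas1a, Mx1, Rsad2, Ifi27, Ifi35 and Irgm1), 15 in 2, 13 in 1 and 2 in none (Bst2, the membrane tether of virions, and Iigp1). The ISRE core of the promoters shown above was in 13 of 24 genes with a window that fell in Apcfl/+ tumours, in 6 of 11 that fell with antibiotics and in 5 of 9 that fell in BA tissue at day 30. Among genes not called it was in 2 of 4, 9 of 18 and 10 of 19, so its share was alike in both sets of each comparison.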

How the data were processed

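RNA of whole intestinal tissue or tumour was sequenced by the authors (paired reads of 36 bases), trimmed with Trim Galore 0.6.4, aligned to GRCm38 with HISAT2 2.1.0 and counted per gene with featureCounts 1.6.4. The deposited values were raw counts per gene for 53 libraries, and the strand setting was not given in the sources used here. Of 55421 gene rows, 55240 matched a symbol in GENCODE M21. Library totals were 516985 to 32824795, and counts carry counting error besides the spread between mice. Samples were grouped by their labels, and nothing in the labels says more of how replicates were kept apart, so p-values measure the spread between these samples.

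Each comparison was fitted on its own groups in R 4.3.3 with edgeR 4.0.16 (TMM scaling, filterByExpr, quasi-likelihood test, two-sided) and adjusted over all genes tested by the Benjamini-Hochberg method at 0.05. Differences between effects were tested as interaction contrasts. Alternatives were RLE scaling, DESeq2 1.42.0, limma 3.58.1 voom, no low-count filter, a replicate block, 1 library left out at a time, 1 fit of all day 30 groups, and terms for Ddx3y or Gm13394. Levels are CPM after TMM scaling over all libraries. The scripts were tested on simulated data. The members and lists (46 pathway genes and 55 markers) were chosen with earlier results of these data known. The values of 1 pathway gene are not reported here, although it is in the counts. Full values were given for up to 4 called members per direction by adjusted p and for Isg15, Irf7, Stat2, Gbp2 and Psmb8 in every comparison, and other members were named after their values were seen.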

Additional observations from a re-analysis of the deposited data

Results flagged for a closer look

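Among 79 sets of 4 to 10 libraries tested for a value far from the rest, 7 had one, and chance gives about 1 in 20. In BA tissue at day 30, Irf7 was 714 CPM in replicate 2 (others 298 to 410 CPM) and Gbp2 was 24.4 CPM in replicate 1 (others 11.3 to 14.2 CPM). With antibiotics, Mx1 was 7.26 CPM in replicate 4 (others 4.53 to 5.22 CPM) and Psmb8 was 16.4 CPM in replicate 3 (others 7.47 to 9.14 CPM). Psmb8 was 257 CPM in Apcfl/fl SI replicate 8 (others 66.7 to 110 CPM). Apcfl/+ tumour 3 was low in Isg20, at 2.94 CPM (others 4.00 to 4.41 CPM), and in Stat2, at 18.9 CPM (others 23.6 to 24.5 CPM).

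By the test of the difference itself, the effect in BA tumours differed from that in Apcfl/+ tumours in 23 of the 40 genes, among them Isg15 (3.39), Parp14 (2.28), Stat2 (1.78), Ddx58 (1.41), Ifih1 (1.14) and Isg20 (-1.28) as differences of log2 fold changes. It differed from the effect in BA tissue at day 30 in 4 genes: Irf7 (-2.12), Isg20 (-1.19), Gbp7 (0.80) and Ddx58 (0.60). This last call of Isg20 was made in only 3 of the 16 fits that left out 1 library.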

How the results depend on the processing

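Calls kept their count within 1.5 times under most alternatives, with these exceptions, whose cause was not tested. With a replicate block 1 member was called in BA tumours, 8 with antibiotics, 11 in Apcfl/fl SI and 1 in the difference between BA tumours and BA tissue at day 30, where no filter gave 2. With a term for Ddx3y 0 were called in BA tumours and 17 in Apcfl/+ tumours. In A mice DESeq2 called 4 and the fit with no filter 1. All day 30 groups in 1 fit gave 9 with antibiotics, and Apcfl/fl SI without libraries over 25 M reads, chosen after seeing the data, gave 18. In no comparison were all correlations between samples of the same replicate number over 0.1. With 3 to 6 pairs per comparison, these correlations cannot settle whether replicate numbers paired the samples.

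With 1 library left out, the counts were 1 to 7 in BA tumours, 11 to 18 in BA tissue at day 30, 0 to 1 in A, 0 to 0 in A sulindac against WT and against A, 8 to 25 with antibiotics, 4 to 10 in Apcfl/fl SI, 29 to 37 in Apcfl/+ tumours, 14 to 24 in the difference between tumours and 1 to 6 in that between BA tumours and day 30.

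Fold changes that changed sign were all of members not called. Isg15 in BA tumours was -0.10 with voom, -0.017 with the replicate block and -0.18 with the Ddx3y term (-0.42 to 0.57 with 1 library left out). In Apcfl/fl SI without libraries over 25 M reads Isg15 was -0.31 and Irf7 -0.43, and Irf7 was -0.11 with voom, -0.15 with the block and -0.094 with a Gm13394 term (-0.14 to 0.11). Stat2 in the difference of BA tumours and day 30 was -0.056 with no filter (-0.13 to 0.19), and Gbp2 there ranged from -0.44 to 0.0019. With 1 library left out, Psmb8 ranged from -0.90 to 0.11 in BA tumours, from -0.0076 to 0.42 in A and from -0.14 to 0.42 in A sulindac against A, Stat2 from -0.091 to 0.21 and Irf7 from -0.28 to 0.17 in A sulindac against WT, and Gbp2 from -0.29 to 0.57 with antibiotics.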

Other observations

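The type III interferon genes, whose receptor is mainly epithelial, had reads mostly in the SI at day 4. Over the 10 Apcfl/fl libraries Ifnl2 had 44 reads, in 4 libraries with at most 22 in one, and Ifnl3 had 38 reads, in 3 libraries with at most 16 in one. Ifnl3 reads were in Apcfl/fl 5, 6 and 7 (0.43, 0.36 and 0.32 CPM). Ifnl2 reads were in the same libraries (0.30, 0.72 and 0.29 CPM) and in Apcfl/fl 10 (0.050 CPM). Apcfl/fl 5, 6 and 7 were also the highest libraries in Ifit2, Rsad2 and Ifi44, and a link was not tested. Over the 6 WT libraries Ifnl2 and Ifnl3 had 4 and 1 reads. These counts were too low for the test across genes.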
